A study of Mus musculus with 2 samples.

Results

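The 51 genes described here make and divide the genome: 21 act in DNA replication and S phase (the replication list) and 30 in mitosis (the mitotic list). They were picked by symbol for these roles, and all 51 symbols were among the 32285 gene features shared by the matrices of 2 droplet libraries of mouse liver cells. The replication list holds the helicase subunits Mcm2 to Mcm7, their loader Cdc6 and licensing partner Cdt1, the sliding clamp Pcna, enzymes that supply deoxynucleotides (Rrm1, Rrm2, Tyms, Tk1) and the histone mRNA binding protein Slbp. The mitotic list holds cyclins and their kinase (Ccna2, Ccnb1, Ccnb2, Cdk1), kinases (Plk1, Aurka, Aurkb, Bub1), kinetochore and chromosome proteins (Cenpa, Cenpe, Cenpf, Top2a, Mki67), and the motors and midzone proteins of cell division (Kif11, Kif20a, Kif23, Prc1, Racgap1, Ect2, Anln).

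In dividing cells the replication genes are switched on by E2F transcription factors as cells enter S phase. The mitotic genes follow in G2 and M phase, under a repressor and activator complex (DREAM and B-MYB-MuvB) that reads CHR and CCAAT promoter elements. Most hepatocytes of an adult liver are out of the cycle and can re-enter it after injury, and many rodent hepatocytes are polyploid because some divide their nuclei or genomes without completing cytokinesis. Kupffer cells, the resident macrophages of the liver, renew themselves by dividing in place.

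The DDC_cMet library pooled cells of wild-type mice on normal diet at day 0 with cells of Sox9-CreERT2:Rosa26-mTmG mice 5 months into DDC diet with cMet, delivered by what its label calls HTVi. The DDC library joined wild-type mice on normal diet (day 0) and Sox9-EGFP mice that had been fed DDC for 2 weeks. DDC is a diet that injures the bile ducts, cMet is named in the label without further detail, Sox9-CreERT2 allows recombination only in cells that express Sox9, mTmG is a reporter that replaces tdTomato with membrane GFP on recombination, and Sox9-EGFP marks cells in which Sox9 is active. Both libraries came from 2 mice per time of strain C57BL/6J;129S6/SvEvTac, perfused for primary hepatocytes, and the protocol also names enriched macrophages as input. Barcodes separate neither the mice nor the times, so each library is 1 sample, library and condition cannot be told apart, and no result here has a p-value. Intervals are exact 95% intervals for counting error only.

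Of 18316 barcodes of the DDC_cMet library, 8099 passed the filter, which asked for 500 genes or more, 2000 UMIs or more and no more than 30% mitochondrial UMIs, with a median of 13215 UMIs. In the DDC library 2903 of 8694 passed, with a median of 29588 UMIs. The libraries shared 50 barcode sequences. Each cell was thinned to 2000 UMIs, so that every cell weighed the same, and classed by markers. Alb-high cells (at least 20 Alb UMIs of 2000 and no other marker list) numbered 5132 in DDC_cMet and 1717 in DDC, Kupffer-like cells 1288 and 389, endothelial-like cells 306 and 66, and 16 and 19 cells were T- or NK-like. Low-Alb cells, with under 20 Alb UMIs and no marker list, numbered 305 and 419. The labels call all cells hepatocytes. Alb-high cells carried all 7 hepatocyte check markers, at a sum of 310.1 UMIs per 10000 in DDC_cMet and 272.5 in DDC, against 25.2 and 20.8 in Kupffer-like cells. Kupffer-like cells carried Clec4f at 32.9 and 39.6 per 10000, against 0.379 and 0.236 in Alb-high cells. Only 3 neutrophil-like cells were found in each library, so no class of cells that never divide was large enough to set a background for these genes.

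The start sites of the 2 lists differ in sequence. RefSeq promoter windows of 300 bases on GRCm38.p6 (mm10), from 250 bases before the start to 50 after it, were matched by symbol for 45 of the 51 members; Mcm4, Gins2, Ccna2, Aurkb, Tpx2 and Kif20a had no entry. An E2F word (TTTCCCGC, TTTCGCGC, TTTGCCGC or TTTGGCGC, either strand) stood in 9 of 19 replication promoters (47.4%) and in 1 of 26 mitotic promoters (3.85%), that of Cdk1. Over all 27025 genes of the table the share was 2.60%. A CHR word (TTTGAA or TTCGAA, either strand) stood in 2 of 19 replication promoters (10.5%), 21 of 26 mitotic promoters (80.8%) and 21.7% of all genes. CCAAT stood in 13 of 19 (68.4%), 22 of 26 (84.6%) and 41.1%. CHR and CCAAT stood together in 20 of the 26 mitotic promoters (76.9%), 2 of the 19 replication promoters (10.5%) and 8.61% of all genes. Words may share bases, as TTTGGCGC and the reverse of TTTCGCGC do in Mcm6. A match is a description of the letters and not evidence of binding. The further lists, 48 replication and 73 mitotic genes that are not members, held an E2F word in 37.1% of 35 matched replication genes and 13.8% of 58 matched mitotic genes, and a CHR word in 28.6% and 69.0%.

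The promoters of 6 genes are shown as examples, and no result on levels depends on them: 2 helicase subunits, Mcm10, and 3 mitotic genes whose shares differed between Kupffer-like cells and hepatocytes. Capitals mark E2F, CHR and CCAAT words on either strand, and each sequence reads 5′ to 3′ on the strand of the gene. The Mcm3 window is chr1:20820263-20820562 (minus strand), Mcm6 chr1:128359656-128359955 (minus), Mcm10 chr2:5012742-5013041 (minus), Top2a chr11:99024140-99024439 (minus), Kif23 chr9:61946750-61947049 (minus) and Cdkn3 chr14:46760291-46760590 (plus).
Mcm3: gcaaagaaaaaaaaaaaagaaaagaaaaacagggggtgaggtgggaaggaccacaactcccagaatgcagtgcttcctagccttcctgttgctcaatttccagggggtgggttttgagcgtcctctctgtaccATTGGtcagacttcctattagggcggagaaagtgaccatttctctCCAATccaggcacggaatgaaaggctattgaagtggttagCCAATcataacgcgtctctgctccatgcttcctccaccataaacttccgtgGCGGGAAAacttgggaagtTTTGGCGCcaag
Mcm6: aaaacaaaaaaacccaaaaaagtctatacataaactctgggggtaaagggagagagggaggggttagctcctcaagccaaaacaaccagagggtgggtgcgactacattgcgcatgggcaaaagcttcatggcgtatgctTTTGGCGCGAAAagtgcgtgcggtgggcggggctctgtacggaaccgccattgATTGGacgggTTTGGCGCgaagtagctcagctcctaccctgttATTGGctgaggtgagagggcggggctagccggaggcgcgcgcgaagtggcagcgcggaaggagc
Mcm10: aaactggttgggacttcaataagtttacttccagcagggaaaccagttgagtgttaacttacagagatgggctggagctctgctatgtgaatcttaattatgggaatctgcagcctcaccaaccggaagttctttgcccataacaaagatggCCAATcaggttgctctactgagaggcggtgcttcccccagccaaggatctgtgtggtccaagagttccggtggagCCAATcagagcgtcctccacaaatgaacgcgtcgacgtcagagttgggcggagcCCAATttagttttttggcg
Top2a: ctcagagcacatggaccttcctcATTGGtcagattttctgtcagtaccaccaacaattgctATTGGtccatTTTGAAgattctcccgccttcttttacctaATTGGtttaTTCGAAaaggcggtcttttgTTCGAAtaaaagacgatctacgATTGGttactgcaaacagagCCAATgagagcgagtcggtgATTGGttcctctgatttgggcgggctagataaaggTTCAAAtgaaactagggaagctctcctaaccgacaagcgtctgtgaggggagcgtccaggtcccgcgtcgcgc
Kif23: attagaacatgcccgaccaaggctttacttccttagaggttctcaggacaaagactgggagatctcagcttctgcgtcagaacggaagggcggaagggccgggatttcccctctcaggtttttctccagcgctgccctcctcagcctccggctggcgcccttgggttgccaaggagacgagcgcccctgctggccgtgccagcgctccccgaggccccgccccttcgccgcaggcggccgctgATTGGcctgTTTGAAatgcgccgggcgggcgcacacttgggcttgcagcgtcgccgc
Cdkn3: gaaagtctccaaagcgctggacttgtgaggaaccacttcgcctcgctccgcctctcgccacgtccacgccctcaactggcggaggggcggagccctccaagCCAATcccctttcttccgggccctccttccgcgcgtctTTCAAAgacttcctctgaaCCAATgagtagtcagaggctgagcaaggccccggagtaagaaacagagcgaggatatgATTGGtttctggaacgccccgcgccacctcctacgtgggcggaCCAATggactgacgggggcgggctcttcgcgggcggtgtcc
Mcm3 and Mcm6 hold E2F words and no CHR word. Pcna, Slbp and Tyms, like Mcm10, have no E2F word in their windows. Mcm10 holds 3 CCAAT words and neither of the others within its window. The window ends in letters that begin the E2F word TTTGGCGC, so a word across that edge would not be seen. Top2a, Kif23 and Cdkn3 hold CHR and CCAAT words without an E2F word, both Top2a and Kif23, which took larger shares in Kupffer-like cells, and Cdkn3, which took a larger share in hepatocytes.

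In Alb-high hepatocytes the mitotic transcripts outweighed the replication transcripts, though in DDC_cMet not in the deeper cells, and in Kupffer-like, endothelial-like and Low-Alb cells the order was the opposite. Summed over its members, the replication list stood at 1.86 UMIs per 10000 (1.77 to 1.94) in Alb-high cells of DDC_cMet, and the mitotic list at 2.08 (1.99 to 2.17). In Alb-high cells of DDC the sums were 1.59 (1.46 to 1.73) for replication and 2.97 (2.79 to 3.16) for mitosis. The ratio of the replication list to the mitotic list was thus 0.893 (0.839 to 0.95) in DDC_cMet and 0.535 (0.481 to 0.594) in DDC. The first of these ratios moved with depth: its log2 was -0.16 over all cells, -0.42 (-0.55 to -0.29) in cells of 2000 to under 10000 UMIs and 0.08 (-0.05 to 0.20) in cells of 10000 or more, a split added after the data were seen. Without Mcm10 and Tk1, also chosen after their values were seen, it was -0.68.

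Kupffer-like cells carried more of both lists, with replication ahead. The replication list stood at 4.32 (4.07 to 4.59) in DDC_cMet and 5.95 (5.42 to 6.52) in DDC, and the mitotic list at 3.42 (3.19 to 3.65) and 4.37 (3.92 to 4.86), ratios of 1.27 and 1.36. Endothelial-like cells had replication sums of 4.36 and 4.39 and mitotic sums of 2.60 and 1.21, ratios of 1.68 and 3.63, the second from 66 cells. The few T- or NK-like cells gave 17 and 23 replication UMIs and 36 and 17 mitotic UMIs, with a ratio of 0.472 (0.249 to 0.863) in DDC_cMet and 1.35 (0.692 to 2.70) in DDC. Low-Alb cells had ratios of 1.36 and 1.33. On the log2 scale the ratio was higher in Kupffer-like than in Alb-high cells by 0.50 in DDC_cMet and 1.35 in DDC. In cells of 10000 or more UMIs the differences were 0.10 and 1.47. For the further lists the log2 ratio of replication to mitosis was below 0 in each of these classes. In DDC_cMet it was -1.75 in Alb-high, -1.83 in Kupffer-like, -1.59 in endothelial-like and -2.07 in Low-Alb cells. In DDC it was -2.31, -1.59, -2.05 and -2.21 in the same order. In each of these classes and libraries 3 genes, with H2afz first, gave 44.9% to 65.8% of the further mitotic UMIs.

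**Figure D1:**
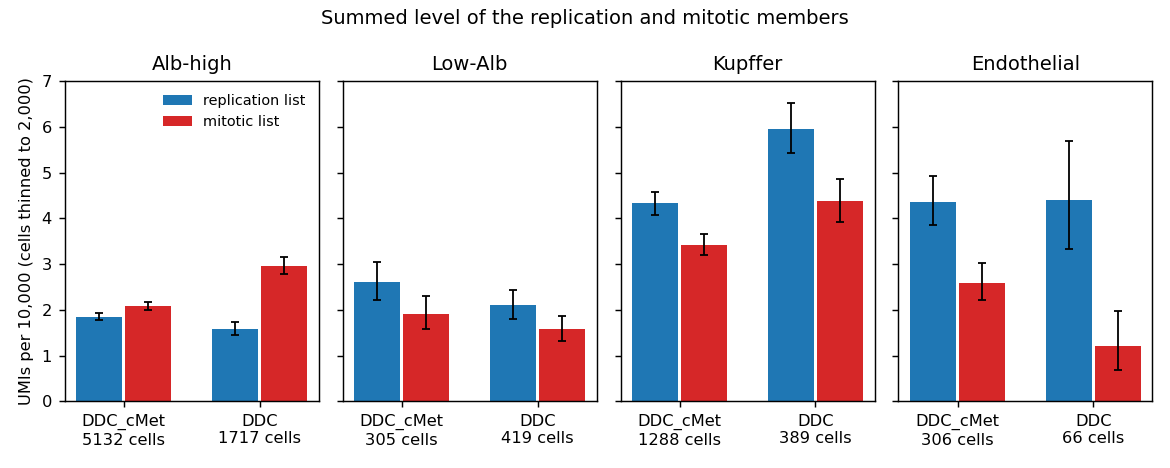
Summed level of the 21 replication members (blue) and the 30 mitotic members (red) in UMIs per 10000, by cell class and library, with exact Poisson 95% intervals for counting error. In Alb-high cells the red bar is the taller of each pair (2.08 against 1.86 in DDC_cMet, 2.97 against 1.59 in DDC), and in Kupffer-like, endothelial-like and Low-Alb cells the blue one is.

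Which members carry the replication sum differs by class. In Alb-high cells the 5 with the most UMIs over both libraries pooled were Pcna, Mcm10, Slbp, Tk1 and Tyms, of which Mcm10 and Tk1 owe their place to DDC_cMet: in DDC, Rrm1 (34 UMIs) and Mcm7 (31 UMIs) stood above Mcm10 (30 UMIs) and Tk1 (18 UMIs). Pcna, the clamp that holds DNA polymerase on its template, stood at 0.346 UMIs per 10000 (0.311 to 0.384) in DDC_cMet and 0.344 (0.284 to 0.412) in DDC. Slbp, which protects histone mRNA, stood at 0.208 and 0.227, and Tyms, thymidylate synthase, at 0.132 and 0.119. The intervals of these 3 overlapped between the libraries. Among the helicase subunits, Mcm7 stood at 0.0633 and 0.0903, Mcm6 at 0.0370 and 0.0495, Mcm3 at 0.0322 and 0.0553, Mcm4 at 0.0244 and 0.0291, and Mcm5 at 0.0214 and 0.0437. Levels of different genes are 3′ UMI counts, 1 per captured molecule and not divided by length, so an order between genes also reflects how well each is captured. In Kupffer-like cells Pcna stood at 1.33 and 1.30, Tk1 at 0.493 and 0.720, Mcm3 at 0.454 and 0.668, and Slbp at 0.311 and 0.450. In endothelial-like cells Pcna (0.899 and 1.44), Slbp (0.866 and 1.52) and Mcm3 (0.735 and 0.682) led. Mcm3 was thus at 0.454 to 0.735 in these classes, against 0.0322 and 0.0553 in Alb-high cells.

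Mitotic members also had a class order of their own. The 5 with the most UMIs in Alb-high cells of both libraries pooled were Birc5, Cdca3, Pttg1, Ccnb2 and Cenpa, the last level with Mki67 at 205 UMIs and below Mki67 and Cdkn3 in DDC_cMet. Birc5, the survivin subunit of the chromosomal passenger complex, stood at 0.221 (0.193 to 0.252) in DDC_cMet and 0.239 (0.190 to 0.296) in DDC. Cdca3, an adaptor that targets mitotic entry inhibitors for destruction, stood at 0.201 and 0.259, Pttg1, securin, at 0.180 and 0.320, Ccnb2, a B-type cyclin, at 0.201 and 0.239, and Cenpa, the centromeric histone, at 0.120 and 0.239. Mki67, which coats mitotic chromosomes, stood at 0.146 and 0.160, Top2a, which untangles DNA, at 0.0438 and 0.0728, Ccnb1 at 0.0585 and 0.102, and Cdk1 at 0.0624 and 0.0728. In Kupffer-like cells Mki67 (0.427 and 0.463), Cenpa (0.411 and 0.257), Top2a (0.299 and 0.411) and Kif23 (0.241 and 0.283) were among the most frequent, and in DDC Ube2c (0.296) stood above Kif23 and Cenpa. Kif23, a midzone motor of cytokinesis, was the lowest mitotic member in Alb-high cells, with 5 UMIs in 5132 cells and 2 UMIs in 1717 cells.

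**Figure D2:**
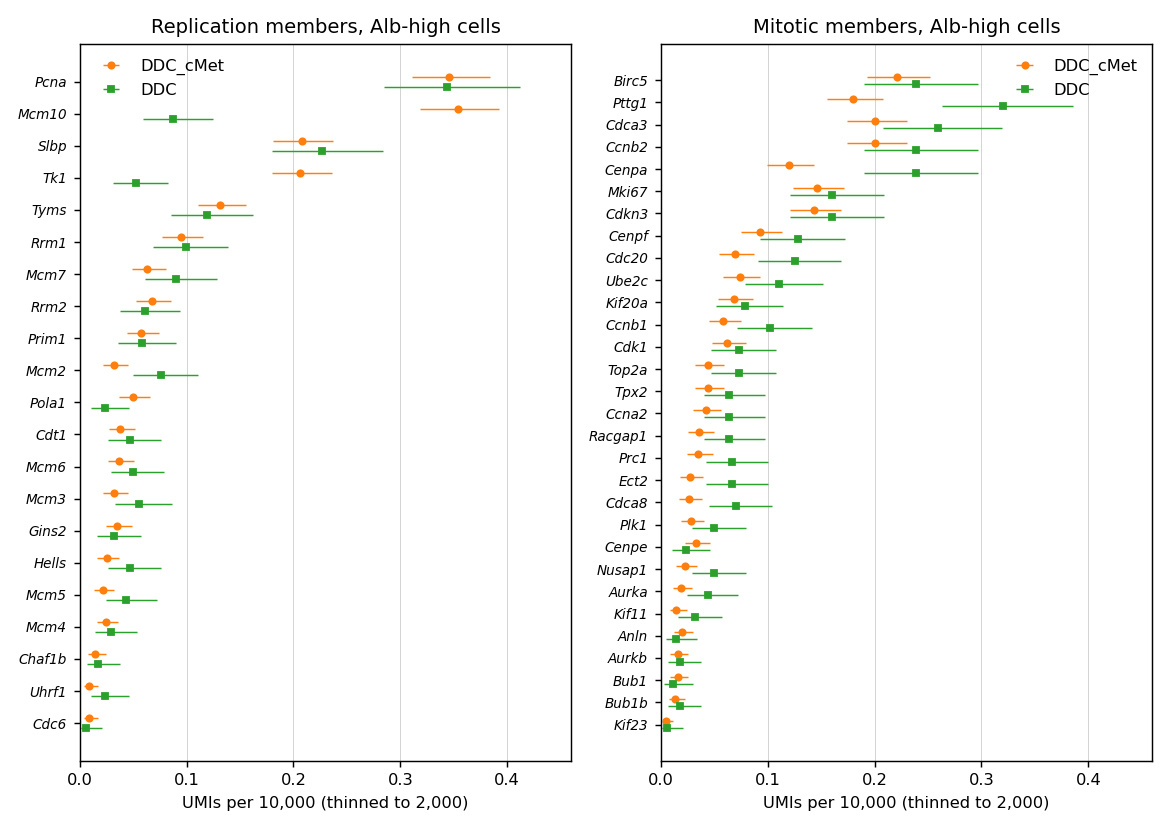
Level of each member in Alb-high cells in UMIs per 10000, with exact Poisson 95% intervals, replication members on the left and mitotic members on the right, DDC_cMet as orange circles above DDC as green squares. Mcm10 (0.354 against 0.0874) and Tk1 (0.207 against 0.0524) stand apart between the libraries, while most mitotic members lie lower in DDC_cMet.

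Between the libraries, deep Alb-high cells of DDC_cMet had fewer mitotic transcripts, and 2 replication genes stood far above the rest. The log2 ratio of DDC_cMet over DDC was -0.51 (-0.62 to -0.41) for the summed mitotic list and 0.23 (0.09 to 0.37) for the replication list. The mitotic ratio was -0.87 (upper bound -0.74) in cells of 10000 or more UMIs, and in cells of 2000 to under 10000 UMIs, 2129 of DDC_cMet and 333 of DDC, it was 0.11 (-0.13 to 0.36), with levels of 2.62 and 2.42. Of the 30 mitotic members 27 had a ratio below 0 and 3 above (Bub1, Anln and Cenpe). The interval lay below 0 for 9 and above 0 for none, but intervals were not counted over all genes, so this count has no background. The signs stand beside a shift of all genes: of 9495 genes with at least 50 UMIs, 68.9% lay below 0 and the median was -0.25. Among members with at least 50 UMIs, a minimum that counts both libraries, 20 mitotic members had a median of -0.60 and 2 were past 2-fold lower, against 7.57% of all genes, while 14 replication members had a median of -0.04. The 2 past 2-fold were Cdca8, a subunit of the passenger complex (0.0263 in DDC_cMet and 0.0699 in DDC, log2 -1.41, -2.26 to -0.55), and Ect2, the exchange factor that starts the cleavage furrow (0.0273 and 0.0670, log2 -1.30, -2.14 to -0.43). The count of past 2-fold lower mitotic members was 17 at 10000 UMIs, against 9.25% of all genes there, and 0 with at most 15% mitochondrial UMIs, against 7.07%.

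The replication members past 2-fold were Mcm10, Tk1 and Pola1, which were higher in DDC_cMet, against 4.32% of all genes, and Mcm2, which was lower. Mcm10, which helps the helicase unwind origins, stood at 0.354 UMIs per 10000 (363 UMIs) in DDC_cMet and 0.0874 (30 UMIs) in DDC, a log2 ratio of 2.02 (1.48 to 2.61). Tk1, the thymidine kinase of S phase, stood at 0.207 and 0.0524 (log2 1.98, 1.28 to 2.76). Pola1, the catalytic subunit of DNA polymerase alpha, stood at 0.0497 and 0.0233, with only 8 UMIs in DDC (log2 1.09, 0.01 to 2.38). Mcm2 stood at 0.0322 and 0.0757 (log2 -1.24, -2.02 to -0.44). Pola1 and Mcm2 depended on the thinning: without it Pola1 stood at 0.0399 and 0.0396 and Mcm2 at 0.0294 and 0.0580, and no replication member was past 2-fold lower, nor was one with a second seed. Without thinning Mcm10 stood at 0.352 and 0.0696 and Tk1 at 0.221 and 0.0827. Without Mcm10 and Tk1 the log2 ratio of the replication list was -0.16 (-0.31 to -0.01) in place of 0.23, so the higher sum in DDC_cMet rested on these 2 genes. In the annotation of the mm10 genome, Mcm10 lies on the minus strand of chromosome 2 from 4989714 to 5012791, and Tk1 on the minus strand of chromosome 11 from 117815526 to 117826092. No annotated gene overlaps Mcm10, while Tk1 overlaps Afmid by 169 bases and Gm20708 by 10567 bases, both on the opposite strand. Whether this overlap touched the counts of Tk1 was not tested. In all, 23 of the 51 members overlap another annotated gene, 10 of them on the same strand.

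In Kupffer-like cells both lists were lower in DDC_cMet, at log2 ratios of -0.46 (-0.62 to -0.30) for replication and -0.36 (-0.54 to -0.17) for mitosis. No member of either list was past 2-fold higher there, against 4.12% of all genes, and 1 of 9 replication members and 0 of 8 mitotic members were past 2-fold lower, against 2% of all genes.

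The other genes of both pathways were mostly within 2-fold in Alb-high cells. Of 48 further replication genes 21 had at least 50 UMIs, with a median log2 ratio of -0.29, and none was past 2-fold. Among the highest were Gins4 (0.59) and the helicase Blm (0.58), and the lowest were the fork protein Tipin (-0.77), Orc6 (-0.69) and the clamp loader subunit Rfc3 (-0.65). Of 73 further mitotic genes 28 had at least 50 UMIs, with a median of -0.48, and 4 were past 2-fold lower, against 7.57% of all genes. The lowest were Ckap2 (-1.94), Jpt1 (-1.48) and Cks2 (-1.44), and the highest Spc24 (0.70), Knstrn (0.44) and H2afx (0.25).

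Mitotic transcripts sat in few hepatocytes and replication transcripts in many. Among Alb-high cells thinned to 10000 UMIs, 66.3% of 3003 DDC_cMet cells and 60.0% of 1384 DDC cells had no mitotic UMI, while 128 (4.26%) and 117 (8.45%) had at least 10. Those few cells held 61.3% and 79.9% of all mitotic UMIs. Mitotic UMIs were also concentrated in Kupffer-like cells, where cells with at least 10 held 76.2% and 76.9%. Only 22.4% and 27.7% of the Alb-high cells had no replication UMI, and 67.2% and 62.5% had 1 to 3. Cells with at least 10 replication UMIs held only 9.97% and 12.6% of the replication UMIs in hepatocytes, against 41.8% and 56.9% in Kupffer-like cells.

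**Figure D3:**
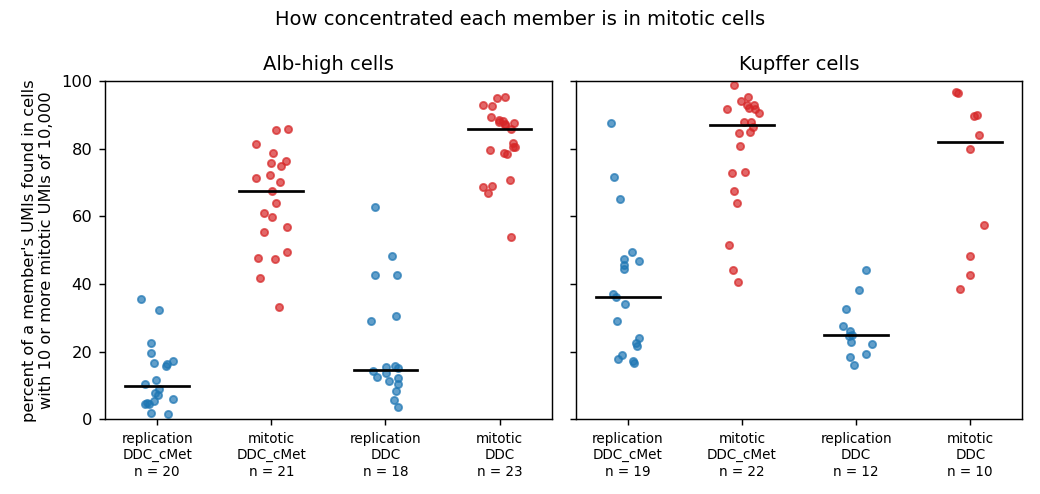
For each member with at least 50 UMIs, the percent of its UMIs that lay in cells with 10 or more mitotic UMIs of 10000, in Alb-high cells (left) and Kupffer-like cells (right), replication members in blue and mitotic members in red, with DDC_cMet left of DDC and a bar at the median. The red points are high by the choice of cells. The blue points are independent of it, with medians of 9.81% and 14.7% in Alb-high cells and 36.1% and 24.8% in Kupffer-like cells.

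Shares of cells with each phase call followed the same division of classes. A cell was called S with at least 2 UMIs from at least 2 replication members, and M with at least 2 UMIs from at least 2 mitotic members, at 2000 UMIs. These calls are ranges of counts and read free RNA as well as the cell's own. Among Alb-high cells, 4.74% (4.17 to 5.35) of DDC_cMet and 4.37% (3.45 to 5.44) of DDC cells were called S, and 7.35% (6.65 to 8.09) and 8.91% (7.61 to 10.4) were called M. Cells called for both made up 0.799% and 1.28%. Without thinning, 57.7% and 71.5% were called S and 27.1% and 38.8% were called M, which follows depth (medians of 19054 and 36435 UMIs).

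Among Kupffer-like cells the S call was the larger: 14.98% (13.1 to 17.1) and 21.3% (17.4 to 25.7) were called S, and 6.52% (5.24 to 8.01) and 7.97% (5.48 to 11.1) were called M. Endothelial-like cells were called S in 15.7% (11.8 to 20.3) and 22.7% (13.3 to 34.7), and M in 4.58% (2.52 to 7.56) and 1.52% (0.0384 to 8.16). Few members gave most of the replication UMIs in endothelial-like cells: Pcna, Slbp and Mcm3 gave 57.3% and 82.8%, with 12 of 21 members detected in DDC. In Kupffer-like cells Pcna, Tk1 and Mcm3 gave 52.6% and 45.1%. The top 3 members in Alb-high cells gave 48.9% and 43.5%. Of the T- or NK-like cells, 5 of 16 and 5 of 19 were called S and 2 of 16 and 2 of 19 were called M. In Low-Alb cells the S share was 9.18% and 5.97% and the M share 3.61% and 2.63%. At 10000 UMIs, with a call at 4 UMIs from 3 members, Alb-high cells were called S in 9.42% and 9.47% and M in 8.99% and 12.6%, and Kupffer-like cells S in 38.2% and 38.6% and M in 10.1% and 10.1%. The order of the calls thus differed in Alb-high cells of DDC_cMet between these rules, which also take different cells, and without thinning the S call was the larger in Alb-high cells of both libraries. At 10000 UMIs, Kupffer-like cells called neither S nor M still had means of 2.11 and 1.77 replication UMIs. Alb-high cells called neither had 1.29 and 1.07.

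Split at 10000 UMIs, DDC_cMet hepatocytes were called M more often among the shallower cells. Of the 2129 Alb-high cells with under 10000 UMIs there, 9.82% (8.59 to 11.2) were called M, against 5.59% (4.80 to 6.48) of the 3003 deeper cells. In DDC 7.21% (4.67 to 10.5) of 333 shallow and 9.32% (7.84 to 10.98) of 1384 deep cells were called M, and these intervals overlapped. From shallowest to deepest over 5 finer bins, the share was 10.1%, 8.84%, 6.79%, 3.90% and 6.94% in DDC_cMet. Over the same bins it was 9.77%, 2.54%, 4.84%, 8.14% and 11.1% in DDC, so it rose or fell steadily in neither library. The 5 mitotic members that led in the shallow DDC_cMet cells were Birc5, Cdca3, Ccnb2, Pttg1 and Mki67, and in the deep ones Ccnb2, Birc5, Cdca3, Pttg1 and Cdkn3, so 4 of 5 were shared. With the split at 10000 UMIs, the M-called share was thus higher in DDC_cMet among shallow cells and lower among deep ones. The intervals of the shallow cells overlap, and the first finer bin above 10000 UMIs went the other way (6.79% and 4.84%).

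Cells called M also had more transcripts of further mitotic genes and, unevenly, of replication members. At 10000 UMIs, 270 Alb-high cells of DDC_cMet and 175 of DDC were called M, and were set against 1990 and 830 cells with no mitotic UMI. Further mitotic genes, which the call did not use, were past 2-fold higher in 26 of 30 and 29 of 32 genes with at least 50 UMIs, against 3.31% and 2.87% of all genes. This minimum sums both sides, so a gene could reach it through the M-called cells alone. The rest of the 73 further mitotic genes were not counted. Of the replication members with at least 50 UMIs, 12 of 19 and 11 of 14 were past 2-fold higher and none was past 2-fold lower, against 3.33% and 3.69% of all genes lower. Over all 21 replication members, 19 had a ratio above 0 in each library, as had 60.3% and 54.7% of all genes. Gins2, a subunit of the replicative helicase complex, had 0.222 UMIs per 10000 in M-called cells of DDC_cMet, against 0.0141 in cells with no mitotic UMI (log2 3.98, 3.31 to 4.68), and 0.189 against 0.0253 in DDC (log2 2.90). Rrm2, the inducible subunit of ribonucleotide reductase, had log2 ratios of 2.81 and 4.64, Mcm6 of 2.74 and 3.07, and Tyms of 2.66 and 2.06.

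In hepatocytes Slbp followed the call weakly or not at all in both libraries, and Pcna followed it weakly in DDC_cMet only. Pcna had 0.330 in M-called Alb-high cells of DDC_cMet, against 0.257 in cells with no mitotic UMI (log2 0.36, 0.02 to 0.69), and 0.520 against 0.248 in DDC (log2 1.07, 0.69 to 1.43). Slbp had 0.181 against 0.177 in DDC_cMet (log2 0.03, -0.43 to 0.47) and 0.251 against 0.213 in DDC (log2 0.24, -0.27 to 0.72). In Kupffer-like cells the same ratios were 1.38 and 2.09 for Pcna and 1.11 and 1.55 for Slbp. For Pcna the intervals in Kupffer-like cells, 1.18 to 1.59 in DDC_cMet and 1.69 to 2.49 in DDC, lay above those in hepatocytes. In Kupffer-like cells 95 M-called cells were set against 379 with no mitotic UMI in DDC_cMet, and 34 against 133 in DDC. All 17 and 6 replication members with at least 50 UMIs there were past 2-fold higher, against 3.02% and 3.57% of all genes, and none was lower, against 2.05% and 3.68%. Over all 21 replication members, 21 had a ratio above 0 in each library, as had 53.9% and 52.6% of all genes.

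Mcm10 went the other way in DDC_cMet hepatocytes. Its level was 0.215 (58 UMIs) in M-called cells and 0.377 (750 UMIs) in cells with no mitotic UMI, a log2 ratio of -0.81 (-1.22 to -0.42), the only replication member whose interval lay below 0. In DDC hepatocytes it was 0.0800 and 0.0747 (log2 0.10, -0.85 to 0.95). Of its 1059 UMIs at 10000 in DDC_cMet hepatocytes, 1.61% (0.938 to 2.56) lay in the 4.26% of cells with at least 10 mitotic UMIs. In Kupffer-like cells of DDC_cMet 45.6% (32.4 to 59.3) of its 57 UMIs lay in such cells. Tk1, the other gene that was higher in DDC_cMet, did follow the call there, at 0.574 against 0.161 (log2 1.84, 1.55 to 2.12).

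Cells called M had a different mix of mitotic transcripts in Kupffer-like cells than in hepatocytes, in both libraries. The 95 Kupffer-like M-called cells of DDC_cMet had a median of 17 mitotic UMIs of 10000 and the 270 Alb-high ones a median of 9; in DDC the medians were 26 over 34 cells and 16 over 175 cells. To set this difference in total aside, each member was taken as a percent of all mitotic UMIs of its group. In Kupffer-like cells the interval of 16 members in DDC_cMet and 11 in DDC lay above that of Alb-high cells, and of 10 and 8 members below it. Among cells with 10 to 40 mitotic UMIs (31 Kupffer-like and 108 Alb-high cells in DDC_cMet, 8 and 89 in DDC, chosen after the values were seen) 8 and 6 were above and 9 and 6 below. The 10 members Mki67, Top2a, Cdk1, Aurkb, Bub1b, Nusap1, Kif11, Kif23, Ube2c and Prc1 were above in both libraries, and 8 were below in both (Ccnb1, Ccnb2, Cdc20, Cdca3, Cdkn3, Birc5, Pttg1 and Kif20a). Intervals were not counted in this way over all genes. By level rather than share, 29.1% and 20.7% of all genes were past 2-fold higher in the Kupffer-like M-called cells of DDC_cMet and DDC. Past 2-fold lower were 22.4% and 27.5%. By level, 20 of 30 and 13 of 26 mitotic members were past 2-fold higher, and 1 and 6 past 2-fold lower.

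Kif23 made up 4.60% (3.89 to 5.40) of mitotic UMIs in M-called Kupffer-like cells of DDC_cMet and 0.288% (0.144 to 0.514) in M-called Alb-high cells, a log2 difference in share of 4.00 (3.12 to 5.04). In DDC it made up 3.75% and 0.359% (log2 3.38, 2.49 to 4.36). Top2a made up 10.4% and 1.91% in DDC_cMet and 15.4% and 1.79% in DDC. Aurkb, the kinase of the passenger complex, made up 2.04% and 0.288% in DDC_cMet and 1.83% and 0.564% in DDC. Cytokinesis genes did not move as 1 group: Prc1 (3.99% and 1.33% in DDC_cMet, 3.58% and 1.64% in DDC) was higher in Kupffer-like cells, Kif20a (1.26% and 3.55%, 0.749% and 3.38%) was lower, and the interval of Ect2 (0.421% and 1.44%, 0.999% and 2.15%) was separate in DDC_cMet and overlapped in DDC.

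On the hepatocyte side the largest ratio of shares was that of Cdkn3, a phosphatase that acts on Cdk1 and Cdk2. It made up 0.940% (0.630 to 1.35) of mitotic UMIs in Kupffer-like cells of DDC_cMet and 8.83% (7.95 to 9.78) in Alb-high cells (log2 -3.23, -3.83 to -2.68), and 0.583% and 5.87% in DDC (log2 -3.33). Cdca3 made up 2.95% and 11.2% in DDC_cMet and 3.08% and 10.8% in DDC. Ccnb2 made up 2.79% and 9.62% in DDC_cMet and 1.75% and 7.25% in DDC. Birc5 made up 6.19% and 11.6%, and 6.91% and 10.3%. UMIs of 1 cell share that cell's stage, and the intervals do not cover this; replication members were also higher in the Kupffer-like M-called cells, at a replication to mitotic ratio of 0.532 and 0.554, against 0.240 and 0.169 in Alb-high M-called cells. The part of cell cycle stage in the difference was not tested. Among the cells with 10 to 40 mitotic UMIs the log2 ratio of shares was 4.39 for Kif23 and 3.36 for Top2a in DDC_cMet, -3.22 for Cdkn3, -1.89 for Cdca3 and -0.845 for Ccnb2, the last against -1.79 among all M-called cells. In DDC it was 6.85 for Kif23, 4.33 for Top2a and -2.03 for Cdca3, from 8 Kupffer-like cells, which held no Ccnb2 or Cdkn3 UMI.

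**Figure D4:**
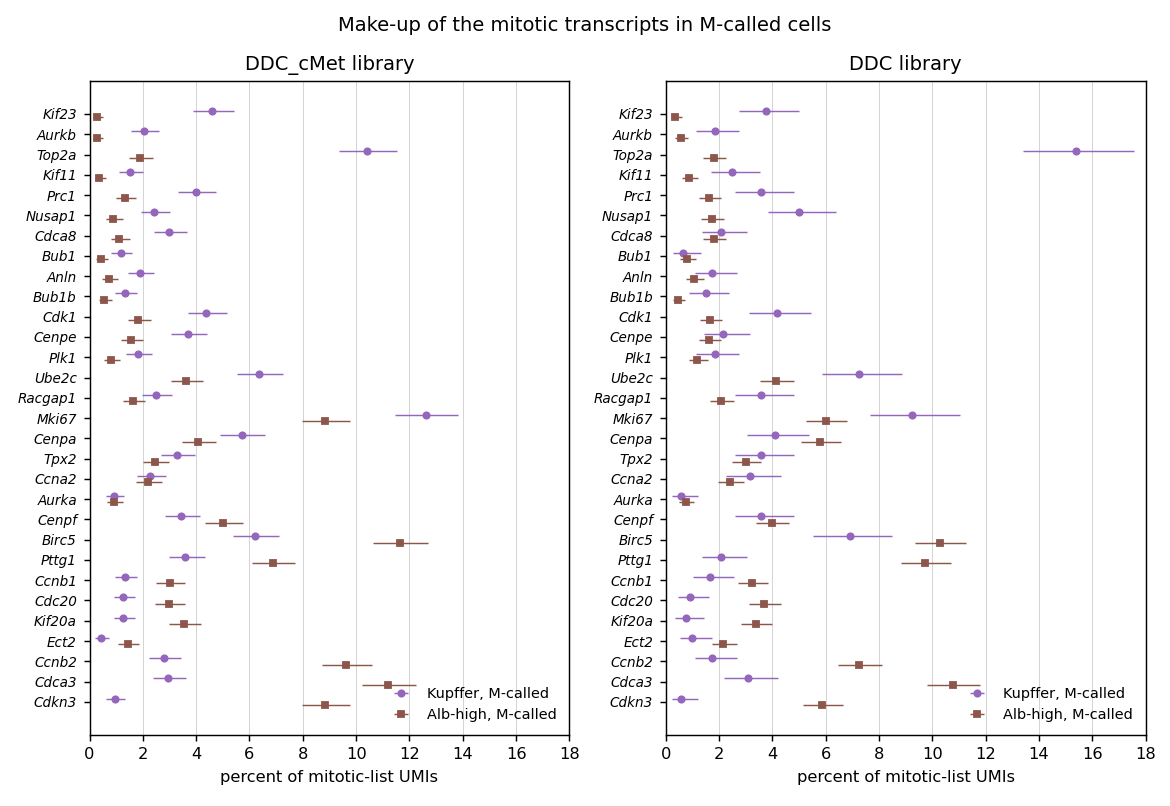
Percent of all mitotic-list UMIs given by each mitotic member in M-called Kupffer-like cells (purple circles) and M-called Alb-high cells (brown squares), with Clopper-Pearson 95% intervals, DDC_cMet left and DDC right, members ordered by the difference in DDC_cMet. Kif23, Aurkb and Top2a are far to the Kupffer side and Cdkn3, Cdca3 and Ccnb2 far to the hepatocyte side in both panels.

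Within the DDC library, cells with more of the Sox9 reporter had fewer transcripts of the mitotic members and, at the top, more of the replication members. Cells of at least 10000 UMIs with no marker list were thinned to 10000 and binned by EGFP UMIs into 0 (1204 cells), 1 to 2 (339), 3 to 5 (107) and 6 or more (106). The mitotic list stood at 3.48, 1.80, 1.21 and 1.46 UMIs per 10000 in this order, and the replication list at 1.63, 1.53, 1.70 and 2.71. The ratio of replication to mitosis was 0.468 (0.443 to 0.493), 0.851 (0.756 to 0.958), 1.41 (1.12 to 1.78) and 1.85 (1.52 to 2.27). The sum of the further mitotic genes was not lower in the top bin, at 15.4, 13.6, 14 and 15.7. That of the further replication genes stood at 3.15, 3.08, 3.26 and 4.47. M-called cells were 13.0% (11.1 to 14.99), 7.08% (4.59 to 10.4), 2.80% (0.582 to 7.98) and 2.83% (0.588 to 8.05), and S-called cells 9.05%, 7.67%, 10.3% and 16.04% (9.63 to 24.4). Cells without EGFP include those of the wild-type mice, which have no reporter, so the bins mix mouse and reporter state. The EGFP share of Kupffer-like cells, 5.04% at a median of 21672 UMIs, is the level in a class that should lack the reporter, beside 25.1% of Alb-high cells (median 42314.5) and 55.1% of Low-Alb cells (median 47590.5).

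Other measures moved with the bins. Median Alb was lower in each higher bin, at 47, 38, 25 and 13 UMIs of 2000, while the secreted matrix protein Spp1 stood at 22.8, 52.9, 120.3 and 194.2 UMIs per 10000 and Sox9 at 0.857, 1.52, 2.30 and 3.26. Median depth was 41104.5, 46800, 53675 and 52029 UMIs. Within Alb-high cells alone the M-called share was 14.6% of 1037, 8.47% of 248, 3.23% of 62 and 2.70% of 37 cells. The last 2 shares are 2 cells and 1 cell. The interval of the bin without EGFP (12.5 to 16.9) was separate from that of 3 to 5 UMIs (0.393 to 11.2). It overlapped those of 1 to 2 UMIs (5.32 to 12.7) and of 6 or more (0.0684 to 14.2). In Low-Alb cells the M-called share was 2.99%, 3.30%, 2.22% and 2.90% of 167, 91, 45 and 69 cells, and the intervals of all 4 bins overlapped.

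Between the outer bins, 26 of the 30 mitotic members were lower in cells with 6 or more EGFP UMIs and 18 of the 21 replication members were higher, beside 34.1% of all genes lower and 65.9% higher. Of the members with at least 50 UMIs, 14 of 23 mitotic members were past 2-fold lower, against 7.15% of all genes, and 5 of 18 replication members were past 2-fold higher, against 11.7%. The medians were -1.45 and 0.61, beside 0.26 for all genes. Of 32 further mitotic genes 13 were past 2-fold lower and 2 past 2-fold higher, with a median of -0.57. Of 22 further replication genes 8 were past 2-fold higher and 0 lower, with a median of 0.56. Mki67 stood at 0.0377 in cells with 6 or more EGFP UMIs and 0.195 in cells with none (log2 -2.37, -4.26 to -0.995), Cdca3 at 0.0660 and 0.344 (log2 -2.38), and Cdkn3 at 2 UMIs in 106 cells and 212 UMIs in 1204 cells (log2 -3.22, -6.28 to -1.35). Top2a stood at 0.132 and 0.0831 (log2 0.67, -0.25 to 1.48), and Nusap1 and Prc1 were also above 0 with intervals across it. The 5 replication members past 2-fold were Mcm4 (0.160 and 0.0424, log2 1.92), Pola1 (log2 1.86), Mcm7 (0.245 and 0.101, log2 1.28), Hells (log2 1.23) and Mcm6 (0.142 and 0.0623, log2 1.18). Pcna (0.358 and 0.287, log2 0.32, -0.20 to 0.81) had an interval across 0. The DDC_cMet library could not be binned by its reporter: tdTomato had 2 UMIs in 8099 cells.

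**Figure D5:**
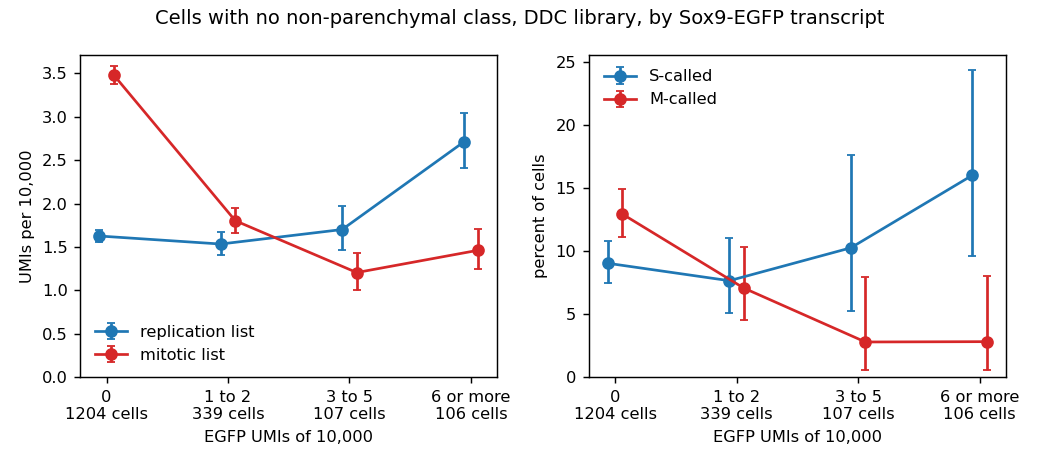
Left, UMIs per 10000 of the replication list (blue) and the mitotic list (red), and right, percent of cells called S (blue) and M (red), in 4 bins of EGFP UMIs among DDC cells with no non-parenchymal class thinned to 10000 UMIs, with exact 95% intervals. The mitotic list stood at 3.48 with no EGFP and at 1.46 with 6 or more, and the replication list at 1.63 and 2.71.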

How the data were processed

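Single cells of mouse liver were measured in 2 droplet libraries with 10x 3′ v3 chemistry. The deposited matrices hold UMI counts per gene and barcode as the authors made them with Cell Ranger 5.0.1, per the file headers. The notes on processing that the submitters gave list mm10, Cell Ranger 6.0.1 and, for Seurat, version 4.0.1. The deposited gene names and barcodes (unit other) label those counts.

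A barcode needed 500 genes, 2000 UMIs and no more than 30% mitochondrial UMIs, a filter of this work. Each cell was thinned at random to 2000 UMIs, and cells of at least 10000 UMIs also to 10000. A cell took a non-parenchymal class with at least 4 UMIs from at least 3 markers of 1 list and fewer than 20 Alb UMIs, where that list had over 2 times the UMIs of the next and, for Kupffer-like cells, a defining marker. Cells that met a list otherwise were called Mixed and left out. No doublet caller was run, and leaving out the deepest 5% of cells was an alternative. Levels are UMIs per 10000 with exact Poisson intervals, shares have Clopper-Pearson intervals, and ratios of counts have exact conditional binomial intervals, all at 95%. UMIs of 1 cell are not independent, so intervals are too narrow. A gene was past 2-fold among those with at least 50 thinned UMIs over both sides. With 1 library per group no p-value was computed.

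The members and lists were chosen with earlier results of these data known. Named by a rule written with the design were the 5 highest members of each list in Alb-high cells, members past 2-fold between the libraries there, members given by role (Mki67, Top2a, Pcna, Mcm2 to Mcm7, Ccnb1, Cdk1 and Slbp) and the 3 highest and 3 lowest of each further list, of which 1 is not reported here. Other members named with values were chosen after their values were seen. Promoters came from RefSeq (GRCm38.p6) and gene positions from GENCODE on mm10. Alternatives changed depth, the Alb limit, the mitochondrial limit, seed, calls and minimum UMIs. Leaving out Mcm10 and Tk1, cells with 10 to 40 mitotic UMIs, a second seed for the reporter bins and splits by cell depth were added after seeing the data. The calculations were tested on simulated data and used pandas 2.3.3, scipy 1.17.1, numpy 2.4.6 and matplotlib 3.10.9 under Python 3.11.15.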

Additional observations from a re-analysis of the deposited data

Results flagged for a closer look

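The replication list differed in direction between classes. Its log2 ratio of DDC_cMet over DDC was 0.225 in Alb-high cells and -0.461 in Kupffer-like cells. The mitotic list had a log2 ratio of -0.515 in Alb-high cells and 1.1 in endothelial-like cells, the second from 16 UMIs in the DDC library. With 1 library per group neither difference between classes was tested.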

How the results depend on the processing

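No paired analysis was possible because each group is 1 library. Of 452 values under the alternatives, over 62 results, 348 differed little, 97 moved and 7 turned direction. Those of the main comparisons that moved or turned follow, while 53 of the moved values belong to single genes, levels and shares. Without Mcm10 and Tk1 the replication list's log2 ratio of DDC_cMet over DDC was -0.161, and the log2 ratio of replication to mitosis was -0.682 in Alb-high cells of DDC_cMet, 0.146 and 0.224 in Kupffer-like cells of DDC_cMet and DDC, and 0.828 for Kupffer minus Alb-high in DDC_cMet. The mitotic list's library ratio was -0.973 at 10000 UMIs, -0.731 with Alb of at least 40, -0.405 with at most 15% mitochondrial UMIs and -0.865 unthinned. In cells of 2000 to under 10000 UMIs it was 0.114 and in cells of 10000 or more -0.871. The count of mitotic members past 2-fold lower was 17 at 10000 UMIs, 5 with Alb of at least 40, 0 with at most 15% mitochondrial UMIs, 17 unthinned, 4 with a second seed, 1 without the deepest 5% of cells and 5 with a minimum of 10 UMIs. That of replication members was 0 with a second seed, 0 unthinned and 3 with a minimum of 10 UMIs, where 3 further replication genes and 15 further mitotic genes were lower and 1 further mitotic gene higher. Of all genes, 9.25% were past 2-fold lower at 10000 UMIs, 6.91% with Alb of at least 40 and 7.07% with at most 15% mitochondrial UMIs. The share was 11.8% unthinned, 7.13% with a second seed, 7.33% without the deepest 5% of cells and 10.6% with a minimum of 10 UMIs. Members that reached the minimum numbered 17 to 30 (mitotic) and 10 to 21 (replication) over these settings. The log2 ratio of replication to mitosis in Alb-high cells of DDC_cMet was 0.131 at 10000 UMIs, -0.269 at 15% mitochondrial UMIs and -0.0433 unthinned, and in DDC it was -1.22 with Alb of at least 40. Unthinned it was 0.0565 and 0.233 in Kupffer-like cells of DDC_cMet and DDC. Kupffer minus Alb-high in DDC_cMet was 0.133 at 10000 UMIs and 0.0998 unthinned. In cells of 2000 to under 10000 UMIs the ratio of lists was -0.423 and -0.412 in Alb-high cells of DDC_cMet and DDC, 1.08 in Kupffer-like cells of DDC_cMet, and 1.5 and 0.77 for Kupffer minus Alb-high; in cells of 10000 or more it was 0.0759, 0.18 and 0.104 in DDC_cMet. The percent called S minus that called M was 0.433 at 10000 UMIs and 11.2 with a call at 1 UMI in Alb-high cells of DDC_cMet, and 5.24 with a call at 1 UMI in those of DDC. In Kupffer-like cells it was 28.2, 1.01 and 25.5 in DDC_cMet and 28.5, 4.37 and 29.8 in DDC at 10000 UMIs, with calls at 3 UMIs from 3 members and with calls at 1 UMI. Within Alb-high cells the log2 ratio of cells with 6 or more EGFP UMIs over cells with none was 0.545 for replication and -2.17 for mitosis. The cause of these changes was not tested. Bins of tdTomato and a background from neutrophil-like cells were not run, since too few UMIs or cells were found.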
